A study of Mus musculus with 8 samples.

Results

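A group of 10 genes of water channels and of the response to osmotic stress was examined in lumbar intervertebral discs of BALB/c mice. They were the aquaporins Aqp1, Aqp3, Aqp4, Aqp5 and Aqp9, the transcription factor Nfat5, the osmolyte transporters Slc5a3 and Slc6a6, the aldose reductase gene Akr1b3 and the ion channel gene Trpv4. A member was measured by every probe set whose platform annotation names that gene alone, which gave 25 of 45037 probe sets and 9 of 18193 genes. No probe set in the annotation used here names Akr1b3, so that gene was not analysed here.

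The samples came from 3 naive and 5 immunized female mice. The immunized mice had received cartilage proteoglycan (100 µg of protein) in 2 mg of dimethyldioctadecylammonium bromide, an adjuvant, with injections on days 0, 21 and 42, a model of autoimmune spondylitis called proteoglycan-induced spondylitis. The naive mice were of the same strain and matched for age, the age itself not being given, and no injection is described for them, so adjuvant and antigen cannot be told apart. Each sample was RNA of 6 pooled discs (L1 to L6), hybridized to 1 Affymetrix array, and the comparison asks which genes differ in discs of mice with spondylitis. Both naive replicate 3 and immunized replicate 1 carry 2 joined sample numbers in their descriptions, and the labels do not say whether RNA of 2 mice was pooled.

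The disc is a tissue with few vessels whose proteoglycans hold water, so its cells live in a fluid of high osmolarity that changes with load. Aquaporins let water, and some of them glycerol, cross the membrane. When the fluid becomes hypertonic, NFAT5 (also called TonEBP) activates genes whose products gather compatible osmolytes such as myo-inositol, taurine, betaine and sorbitol. TRPV4 is a calcium channel that responds to cell swelling and mechanical load and is well known in chondrocytes.

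Values are log2 signals, each set against its probe set's median over the 8 arrays, so levels of different genes cannot be compared. A difference is the mean of the immunized minus the mean of the naive samples, and a difference of 1 is a doubling. Only a coarse class of signal is left in the spacing of the printed numbers, and it gives the lowest array of each probe set: 8 of the 25 probe sets were at 8 or more (log2), 16 from 4 to 8 and 1, of Aqp3, below 4. Aqp1, Nfat5, Slc5a3, Slc6a6 and Trpv4 each had a probe set in the highest class, while Aqp3, Aqp4, Aqp5 and Aqp9 had none. By the same measure 9 of 10 chondrocyte markers and 6 of 8 markers of nucleus pulposus and notochord reached the highest class. So did 6 of 8 of annulus fibrosus and fibroblasts and all 10 of skeletal muscle. The counts were 9 of 10 for neutrophil and 7 of 10 for macrophage markers. They were 4 of 5 for erythroid, 5 of 9 for endothelial and 2 of 10 for keratinized epithelium markers.

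Discs of immunized mice had lower Trpv4, by 2.13-fold. It was the only one of the 9 measured genes to pass the threshold, an adjusted p under 0.05 in limma over all genes. Over all 18193 genes 4.68% were called lower and 4.46% higher, and 10208 had a negative and 7985 a positive difference. In single probe sets, 2 of 4 for the taurine transporter gene Slc6a6 and 1 of 6 for Nfat5 also fell. No aquaporin passed at either level. The median difference of the 9 genes was -0.14, against -0.04 over all genes.

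Promoter sequence is shown for 2 genes, with bases in RefSeq's order from 5′ to 3′ on the gene's own strand (build GRCm38.p6). Trpv4 is shown because it was the member that fell, and Slc5a3 because its probe sets differ in sign and its start lies next to that of another gene, Mrps6. Each stretch ends before the first base of any annotated gene. The first is chr5:114658436-114658671 (minus strand) and the second chr16:92058072-92058321 (plus strand). Capitals mark GGGCGG, the GC box, which binds Sp1 family factors.
Trpv4: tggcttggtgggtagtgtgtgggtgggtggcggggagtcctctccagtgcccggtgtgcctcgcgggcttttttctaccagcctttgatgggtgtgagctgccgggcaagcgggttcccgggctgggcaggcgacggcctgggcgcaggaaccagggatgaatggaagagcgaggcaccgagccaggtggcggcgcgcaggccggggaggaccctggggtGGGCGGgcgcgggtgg
Slc5a3: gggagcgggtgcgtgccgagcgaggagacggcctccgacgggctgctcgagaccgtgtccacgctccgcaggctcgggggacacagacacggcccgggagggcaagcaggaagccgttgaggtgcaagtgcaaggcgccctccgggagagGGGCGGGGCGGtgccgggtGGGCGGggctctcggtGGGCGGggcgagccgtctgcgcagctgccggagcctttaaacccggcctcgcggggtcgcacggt

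Promoter windows, from 250 bases before to 50 after a start, were found for 7 of the 10 members, with 2 windows for Aqp9 and so 8 in all. GGGCGG was searched on both strands and lay in 6 of these 8 windows, against 35.7% of 32851 windows of the same length. TGGAAA, the core of the tonicity element bound by NFAT5, lay in 1 of the 8, a window of Aqp9 at 188 bases before the start, against 21.4% of all windows on both strands. The whole tonicity element (TonE consensus), which holds that core, lay in 0 of the 8 and in 4.96% of all windows. A match is a description of letters, and its absence says nothing of sites elsewhere.

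Trpv4 (chromosome 5, 114622152 to 114658435) was measured by 1 probe set. Its value was 0.63, 0.62 and 0.73 in naive replicates 1 to 3 and -0.44, 0.44, -0.91, -0.52 and -0.73 in immunized replicates 1 to 5. The groups did not overlap. The naive samples were close together, and immunized replicate 2 lay next to them while the other immunized samples were far below. The difference was -1.09 ± 0.26 (SE; 95% confidence interval -1.69 to -0.50; adjusted p = 0.0395 in limma). Leaving out naive replicate 1, 2 or 3 or immunized replicate 1, 3, 4 or 5 in turn kept the difference between -1.11 and -0.97 but ended the call (adjusted p from 0.0682 to 0.104). Without immunized replicate 2 it was -1.31 (adjusted p = 0.00128). After a further quantile normalization, of the centred values, the adjusted p was 0.0637, and without both samples with joined numbers 0.188.

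Chondrocyte markers were set beside Trpv4. Of 10 such markers 4 fell, all 10 had a negative difference, and none was higher. Their mean was 0.34, 0.62 and 0.64 in the naive and -0.43, 0.30, -0.89, -0.24 and -0.53 in the immunized samples. Immunized replicate 2 was thus the highest and replicate 3 the lowest of the immunized samples in both. Replicate 2 was also the highest immunized sample in the means of nucleus pulposus and notochord (0.34) and keratinized epithelium markers (0.11). It was the lowest in the neutrophil (-0.14) and macrophage means (-0.03). In the annulus fibrosus and fibroblast mean (-0.04) it was neither. Its place is thus not particular to chondrocyte markers. Among naive samples the chondrocyte mean was lowest in replicate 1 (0.34), where Trpv4 was 0.63. Sox9, the transcription factor of chondrocytes, differed by -0.83 ± 0.19 and the collagen gene Col11a2 by -1.26 ± 0.27, and both fell. Relative to the marker mean, Trpv4 was 0.29, 0.00 and 0.08 in naive and -0.01, 0.15, -0.01, -0.28 and -0.20 in immunized samples, so the groups overlapped. The difference that remained was -0.20 (two-sided exact permutation p = 0.161, adjusted p = 0.246 over 11 such pairs). These pairs of a member and a marker list were chosen after the values were seen. Of 8 measured markers of nucleus pulposus and notochord, Krt19 fell and all 8 had a negative difference, their mean lying between 0.36 and 0.54 in naive and between -0.79 and 0.34 in immunized samples. Relative to that mean the Trpv4 groups did not overlap, with a difference of -0.36 (two-sided exact permutation p = 0.0714, adjusted p = 0.196). In bulk tissue, fewer cells of a type and less RNA per cell cannot be told apart.

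The genes with values nearest to those of Trpv4 over the 8 arrays, by root mean square difference, were Pcsk6 (0.075), a proprotein convertase, Colgalt2 (0.094), which adds galactose to collagen, and Hoxd9 (0.099), a homeobox factor of axial position.

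**Figure D1:**
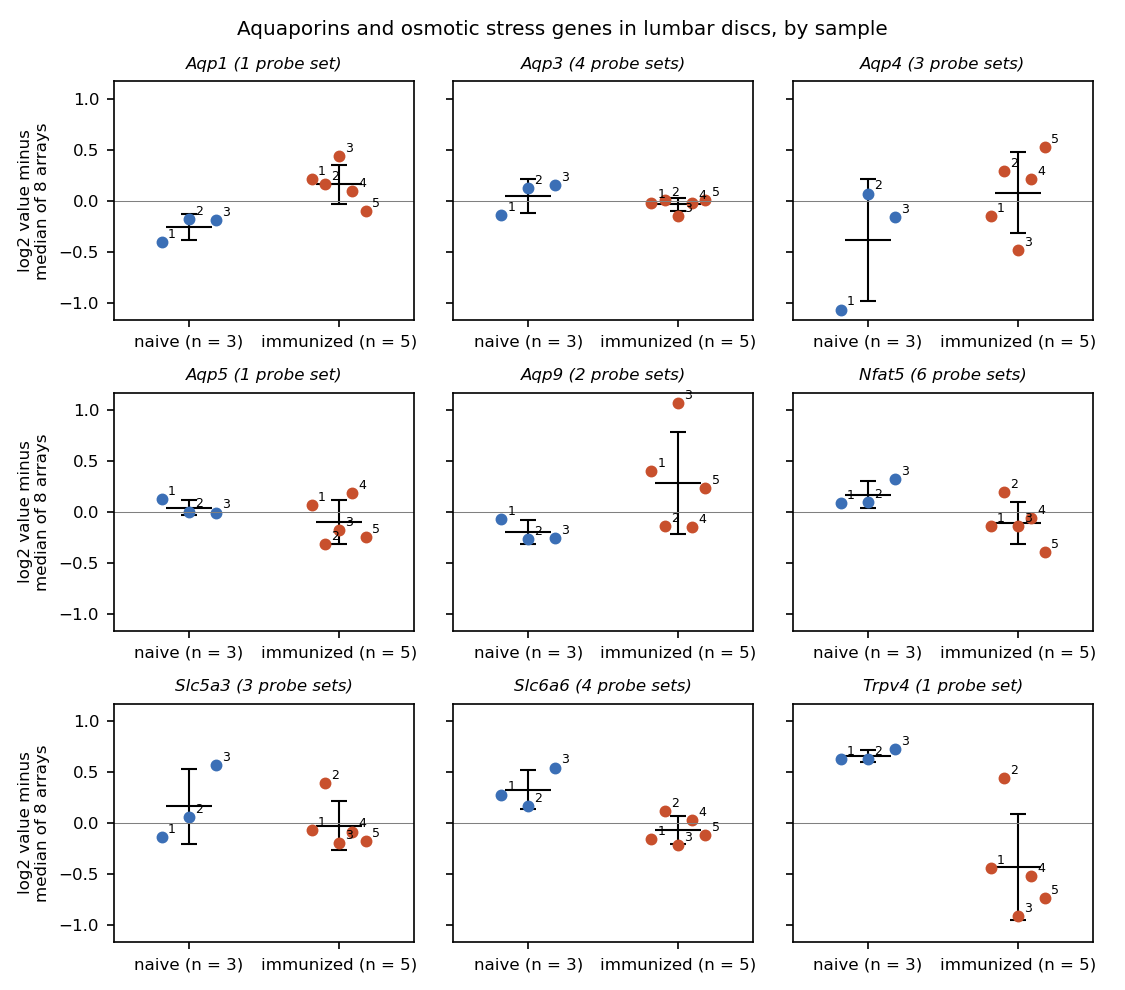
Points show each sample's log2 value relative to the median of the 8 arrays for the 9 measured genes (mean of their probe sets), with replicate numbers beside them, and black lines the mean ± SD of 3 naive (blue) and 5 immunized (red) samples. Trpv4 lies between 0.62 and 0.73 in naive and between -0.91 and 0.44 in immunized samples, and Slc6a6 and Aqp1 also have no overlap between the groups.

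Among the aquaporins, Aqp1 (chromosome 6, 55336299 to 55348555) showed the clearest order of samples. Aqp1, a water channel of red cells, small vessels and many connective tissues, was -0.40, -0.18 and -0.19 in naive and 0.21, 0.16, 0.44, 0.09 and -0.09 in immunized samples. The lowest immunized sample lay above the highest naive sample. The difference of 0.42 ± 0.12 (95% confidence interval 0.15 to 0.69) did not pass (adjusted p = 0.0602 in limma). Non-overlap in this direction was found for 9.39% of all genes. Of 22 other settings Aqp1 passed in 3. These were array weights (adjusted p = 0.0117), the trended and robust variance model (0.0458) and a threshold of 0.1. In the other 19 it did not pass (adjusted p up to 0.205). Array weights called 5900 of all 18193 genes, against 1663 without them.

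Endothelial markers were set beside Aqp1. Of 9 such genes 8 had a positive difference and 0 passed. At an unadjusted p under 0.05 in limma 2 were higher, against 12.9% of all genes. These were Tie1 (0.44 ± 0.12) and Tek (0.52 ± 0.21), both endothelial receptor kinases. The mean of the 9 genes lay between -0.22 and -0.08 in naive and between -0.06 and 0.50 in immunized samples. None of 5 erythroid genes passed (0 at an unadjusted p under 0.05), and their mean was highest in immunized replicate 3 (0.77), where Aqp1 was also highest. Relative to the endothelial and erythroid means Aqp1 differed by 0.16 and 0.25, with overlap (two-sided exact permutation p = 0.393 and 0.357, adjusted p = 0.393 for both).

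Aqp9 (chromosome 9, 71110659 to 71167849), a channel for water and small solutes in leukocytes and liver, varied most among the immunized samples of the 5 aquaporins. The mean of its 2 probe sets was -0.07, -0.27 and -0.25 in naive and 0.40, -0.14, 1.07, -0.15 and 0.24 in immunized samples. Immunized replicate 3 stood highest, and immunized replicates 2 and 4 lay among the naive values. The difference of 0.48 ± 0.25 did not pass (adjusted p = 0.231), and the probe sets differed by 0.55 ± 0.30 and 0.41 ± 0.29. Without immunized replicate 3 the difference of Aqp9 was 0.28 (adjusted p = 0.260). Of 22 settings Aqp9 passed only with array weights (0.57, adjusted p = 0.0376), which called 5900 of all 18193 genes.

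Of 10 neutrophil markers 3 rose and all 10 had a positive difference. Cxcr2, a chemokine receptor, was higher by 1.55 ± 0.34 and the calprotectin subunit gene S100a9 by 0.40 ± 0.09. The marker mean was -0.07, -0.60 and -0.69 in naive and 0.21, -0.14, 0.56, 0.05 and 0.59 in immunized samples. Naive replicate 1 was the highest naive sample in both the gene mean of Aqp9 and this mean. The 2 probe sets of Aqp9 disagreed there. Among naive samples, replicate 1 was highest in 1424011_at (0.22) and lowest in 1421605_a_at (-0.35). Of 10 macrophage markers 5 rose, among them Lyz2 (0.91 ± 0.13) and Itgam (1.81 ± 0.29). Relative to the neutrophil mean the Aqp9 groups overlapped (difference -0.22, two-sided exact permutation p = 0.339, adjusted p = 0.393), as they did relative to the macrophage mean (-0.46, p = 0.179, adjusted p = 0.246).

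Aqp4 (chromosome 18, 15389394 to 15410982) is the water channel of astrocyte end feet and of fast muscle fibres. Its gene mean was -1.06, 0.07 and -0.16 in naive and -0.14, 0.29, -0.48, 0.22 and 0.53 in immunized samples. Naive replicate 1 lay far below the rest, and the groups overlapped. The difference of 0.46 ± 0.29 did not pass (adjusted p = 0.306), and without naive replicate 1 it was 0.12 (adjusted p = 0.781). Its 3 probe sets differed by 0.15 ± 0.36, 0.99 ± 0.46 and 0.25 ± 0.09, all in one direction and none past the threshold.

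Skeletal muscle markers were low in the same sample. Their mean over 10 genes was -0.58 in naive replicate 1, 0.25 and 0.05 in the other naive samples, and between -0.31 and 0.28 in immunized samples. None of the 10 passed, with 0 at an unadjusted p under 0.05. Relative to this mean Aqp4 was -0.48, -0.18 and -0.20 in naive and 0.03, 0.06, -0.17, -0.06 and 0.58 in immunized samples, without overlap. The difference of 0.38 did not pass (two-sided exact permutation p = 0.0536, adjusted p = 0.196). The part of muscle in the Aqp4 values was not otherwise tested.

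**Figure D2:**
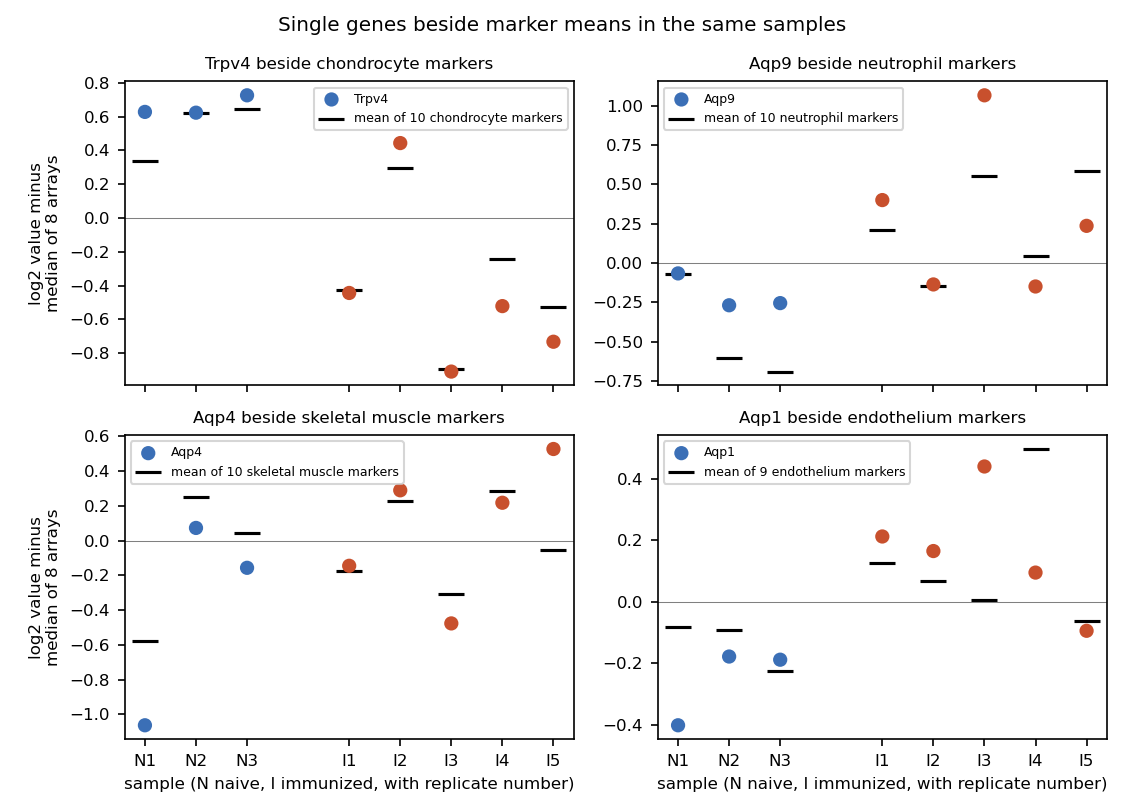
For each of 8 samples, points show Trpv4, Aqp9, Aqp4 or Aqp1 (blue naive, red immunized) and black dashes the mean of the cell type markers named in each panel, both on the log2 scale and centred on the arrays' median. Trpv4 and the chondrocyte mean share their highest and lowest immunized samples (replicates 2 and 3), and Aqp4 and the muscle mean are both lowest in naive replicate 1.

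Aqp3 and Aqp5 showed small differences. Aqp3 (chromosome 4, 41092724 to 41098183), a water and glycerol channel of epithelia that is also known in disc cells, was -0.14, 0.13 and 0.16 in naive and -0.01, 0.01, -0.15, -0.02 and 0.01 in immunized samples. The immunized values lay within or next to the naive range. Its difference was -0.08 ± 0.09 (95% confidence interval -0.28 to 0.12; adjusted p = 0.561), and its 4 probe sets ranged from -0.22 to 0.07. With 1 sample left out in turn Aqp3 lay between -0.18 and -0.03. Aqp5 (chromosome 15, 99591028 to 99594829), a water channel of glands, was 0.13, 0.01 and -0.01 in naive and 0.07, -0.32, -0.18, 0.18 and -0.25 in immunized samples. The groups overlapped, with a difference of -0.14 ± 0.12 (95% confidence interval -0.42 to 0.14; adjusted p = 0.470). Of 10 markers of keratinized epithelium, 3 (Sbsn, Krt1 and Trp63) fell, and all 10 had a negative difference. Their mean was between 0.31 and 0.33 in naive and between -0.39 and 0.11 in immunized samples. Relative to that mean Aqp3 differed by 0.43 without overlap (two-sided exact permutation p = 0.0357, adjusted p = 0.196). Aqp5 differed by 0.37 with overlap (exact permutation p = 0.125, adjusted p = 0.229). As Aqp3 and Aqp5 themselves differed little, both values mostly follow the fall of the marker mean. The markers fell unevenly, from -1.89 (Sbsn) to -0.06 with a median of -0.33. These pairs too were chosen after the values were seen.

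The remaining members of the aquaporin family were taken as a list. Of 7 measured, 0 passed in limma, while Aqp11 (0.32 ± 0.11, adjusted p = 0.0966) was higher and Aqp7 (-0.47 ± 0.20, adjusted p = 0.150), the glycerol channel of fat cells, lower at an unadjusted p under 0.05. Over all genes 12.9% were higher and 18.2% lower at that level. None of the 7 had a probe set in the highest signal class. The 3 probe sets of Aqp11 disagreed (0.57 ± 0.18, 0.41 ± 0.22 and -0.02 ± 0.08), none past the threshold. Aqp7 passed with array weights (-0.63, adjusted p = 0.00943), which called 5900 of all 18193 genes.

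Nfat5 (chromosome 8, 107293435 to 107379517), which encodes the transcription factor of the tonicity response, was measured by 6 probe sets that did not move alike. Their mean was 0.09, 0.10 and 0.32 in naive and -0.13, 0.19, -0.14, -0.06 and -0.39 in immunized samples. Immunized replicate 2 lay among the naive values and the other immunized samples below them. The gene's difference of -0.27 ± 0.13 (95% confidence interval -0.56 to 0.01) missed the threshold (adjusted p = 0.179). Probe set 1439328_at fell, by -0.51 ± 0.12 (adjusted p = 0.0454 over all probe sets in limma). Its values were 0.36, 0.29 and 0.27 in naive and -0.20, 0.03, -0.42, -0.03 and -0.41 in immunized samples, without overlap. The other probe sets of the highest signal class, 1438999_a_at (-0.37 ± 0.18) and 1439805_at (-0.28 ± 0.14), had the same sign and did not pass. The 3 dimmer probe sets differed by 0.13, -0.11 and -0.50, none past the threshold. Of all 45037 probe sets 2.89% were called lower and 3.30% higher, and in 11.4% and 9.01% all immunized values lay below or above the naive ones.

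Slc6a6 (chromosome 6, 91684048 to 91759063) encodes TauT, which takes up taurine and is a target of NFAT5. Its gene mean was 0.28, 0.16 and 0.54 in naive and -0.16, 0.12, -0.22, 0.03 and -0.12 in immunized samples. The groups did not overlap, with immunized replicate 2 just below naive replicate 2. The difference of -0.40 ± 0.11 (95% confidence interval -0.65 to -0.14), or 1.32-fold lower, did not pass (adjusted p = 0.0590). Non-overlap in this direction was found for 14.0% of all genes. All 4 probe sets had a negative difference. Probe sets 1420148_at (-0.48 ± 0.09, adjusted p = 0.0226) and 1437149_at (-0.45 ± 0.11, adjusted p = 0.0454) fell, and 1421346_a_at (-0.34 ± 0.26) and 1449751_at (-0.31 ± 0.14) did not pass.

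The values of probe set 1420148_at were 0.35, 0.39 and 0.49 in naive and -0.06, 0.03, -0.10, -0.03 and -0.21 in immunized samples. The groups stood well apart there, whereas in 1421346_a_at naive replicate 2 (-0.41) was the lowest of all samples and naive replicate 3 (0.82) the highest. With the median of the probe sets in place of the mean, Slc6a6 passed (-0.46, adjusted p = 0.0268), as it did with array weights (0.0167) and without immunized replicate 2 (-0.44, 0.0327). In 17 of 22 settings Slc6a6 did not pass (adjusted p up to 0.277). The call of 1420148_at ended without naive replicate 2 or 3 or immunized replicate 1, and those of both 1420148_at and 1437149_at ended with a trended and robust variance. The calls of 1437149_at and of the Nfat5 probe set 1439328_at ended without any one sample other than immunized replicate 2 and after quantile normalization.

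Nfat5 and Slc6a6 were also set beside the chondrocyte markers. Relative to the chondrocyte mean Nfat5 was -0.25, -0.52 and -0.32 in naive and 0.30, -0.10, 0.76, 0.18 and 0.14 in immunized samples. Here the immunized samples were the higher ones, by 0.62 (two-sided exact permutation p = 0.0357, adjusted p = 0.196). Slc6a6 differed by 0.49 in the same direction with overlap (exact permutation p = 0.0893, adjusted p = 0.196). Nfat5 and Slc6a6 themselves had negative differences (-0.27 and -0.40). The sign turned because the markers fell further (median difference -0.83). These pairs too were chosen after the values were seen, and a higher level per chondrocyte was not tested.

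Slc5a3 (chromosome 16, 92058322 to 92087473) encodes SMIT1, the sodium-coupled transporter of myo-inositol and a target of NFAT5, and its probe sets disagreed. Probe set 1422170_at was -0.60, -0.64 and -0.05 in naive and 0.05, 0.56, 0.01, -0.01 and 0.27 in immunized samples and did not overlap between the groups. Probe set 1435484_at, of the highest signal class, was 0.09, 0.50 and 0.58 in naive and -0.16, 0.51, -0.34, -0.09 and -0.34 in immunized samples, and only immunized replicate 2 lay among the naive values. Probe set 1440227_at was 0.10, 0.32 and 1.18 in naive and -0.10, 0.11, -0.26, -0.16 and -0.47 in immunized samples, again with replicate 2 alone overlapping. The differences were 0.60 ± 0.18, -0.47 ± 0.20 and -0.71 ± 0.23, and none passed (adjusted p = 0.0716, 0.171 and 0.0936). The gene mean (-0.19 ± 0.18, adjusted p = 0.507) therefore joins values of opposite sign.

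In RefSeq the interval of Slc5a3 overlaps that of the mitochondrial ribosomal protein gene Mrps6, which begins at 92058336 on the same chromosome. The difference of Mrps6 itself, -0.39 ± 0.16, missed the threshold (adjusted p = 0.139). Which transcripts each Slc5a3 probe set binds was not analysed here.

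**Figure D3:**
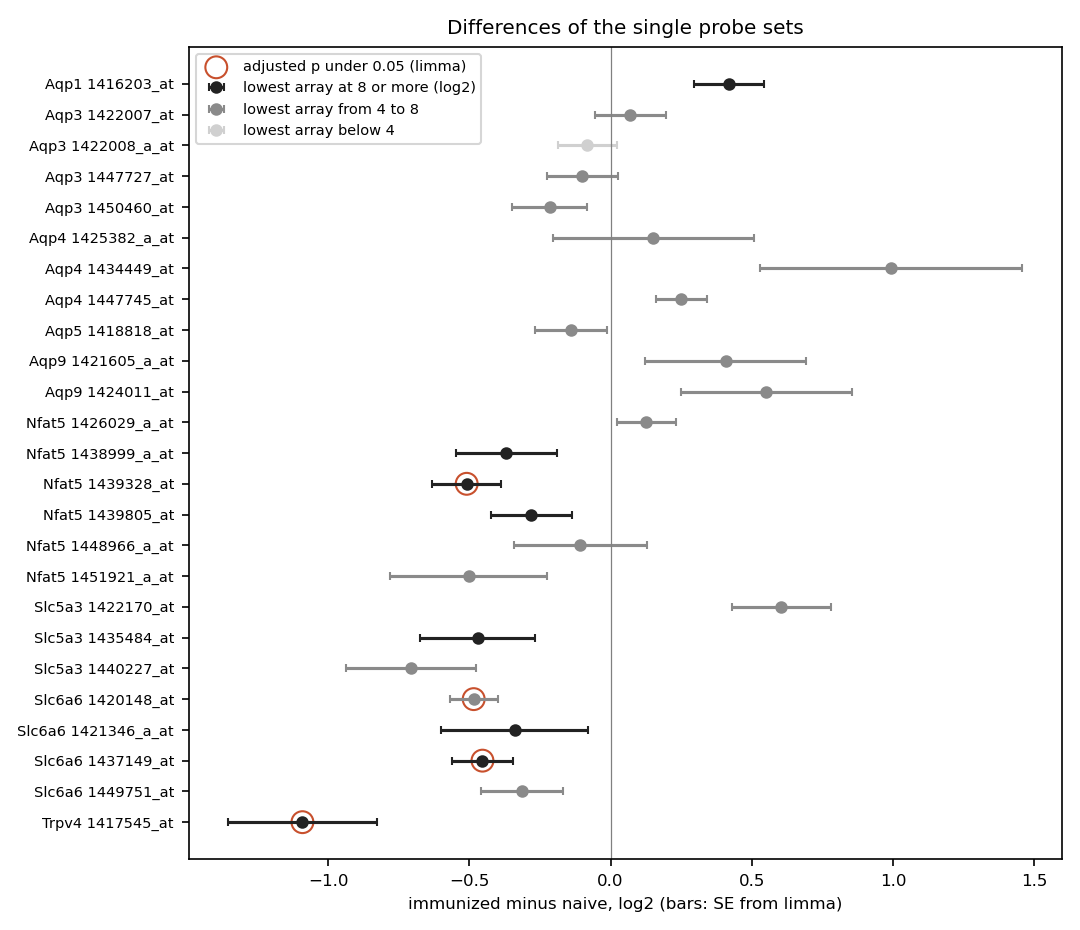
Points show the difference of immunized from naive samples (log2) for each of the 25 probe sets with SE from limma, shaded by the signal class of the lowest array, and circles mark an adjusted p under 0.05 over all probe sets. The 4 circled probe sets, of Nfat5, Slc6a6 and Trpv4, are lower in immunized samples, and the 3 probe sets of Slc5a3 lie on both sides of 0.

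Other genes of the tonicity response were examined in a list of 12, of which 10 were measured. One gene (1 of 10) fell, against 4.68% of all genes. This was Slc6a12, which encodes BGT1, the transporter of betaine and GABA and a target of NFAT5. Slc6a12 was 1.23, 0.87 and 0.95 in naive and -0.58, 0.58, -0.81, -1.20 and -1.25 in immunized samples. The groups did not overlap, and immunized replicate 2 again lay nearest to the naive samples. The difference of -1.67 ± 0.37 (adjusted p = 0.0336) is a 3.18-fold lower value, larger than that of any of the 9 member genes. The list had 6 positive and 4 negative differences with a median of 0.05. With p left unadjusted, 1 was higher and 3 were lower at 0.05, against 12.9% and 18.2% of all genes. Besides Slc6a12 these were the heat shock protein gene Hspa4l (0.53 ± 0.18, adjusted p = 0.0851), Pnpla6 (-0.32 ± 0.10, adjusted p = 0.0748), which breaks down phosphatidylcholine, and Gdpd5 (-0.47 ± 0.18, adjusted p = 0.122), which breaks down glycerophosphocholine.

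Of 6 measured genes of osmolyte synthesis, 0 passed. With p left unadjusted in limma, 2 were lower and 0 higher at 0.05, against 18.2% and 12.9% of all genes. Csad, an enzyme of taurine synthesis, differed by -0.36 ± 0.13 (adjusted p = 0.112) and the dehydrogenase gene Aldh7a1 by -0.27 ± 0.08 (adjusted p = 0.0657). In both, all immunized samples lay below all naive samples, as they did in 14.0% of all genes. The probe sets of Aldh7a1 differed by -0.07 ± 0.10, -0.14 ± 0.09 and -0.59 ± 0.17, none past the threshold.

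Cell volume is also set by cation-chloride cotransporters and the WNK kinases that control them. Of 12 measured genes of this kind 3 fell and 11 had a negative difference, with a median of -0.21. Over all 18193 genes 4.68% were called lower and 10208 had a negative difference. Wnk4, a WNK kinase, was 0.93, 0.66 and 0.63 in naive and -0.51, 0.15, -0.41, -0.15 and -0.42 in immunized samples, a difference of -1.01 ± 0.16 (adjusted p = 0.0153). Stk39, which encodes the kinase SPAK downstream of WNK, was 0.56, 0.58 and 1.03 in naive and -0.04, 0.11, -0.31, -0.62 and -0.57 in immunized samples, a difference of -1.01 ± 0.19 (adjusted p = 0.0240). The groups stood apart in both genes. Slc12a7, which encodes the potassium-chloride cotransporter KCC4, differed by -0.52 ± 0.12 (adjusted p = 0.0322).

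Slc12a2 encodes NKCC1, the sodium-potassium-chloride cotransporter that SPAK activates. Its groups did not overlap, but its difference of -1.01 ± 0.29 missed the threshold (adjusted p = 0.0619). Of the volume-regulated anion channel genes, Lrrc8a differed by -0.27 ± 0.12 and Lrrc8c by 0.21 ± 0.10, neither past the threshold. Of the 4 calls in these pathway lists, that of Wnk4 ended without naive replicate 2 or 3, that of Stk39 also without naive replicate 1 or immunized replicate 1 or 5 and with the probe sets of its highest signal class alone, and those of Slc6a12 and Slc12a7 without any one sample other than immunized replicate 2. After quantile normalization Slc6a12 and Slc12a7 no longer passed.

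None of 5 measured genes of other vanilloid TRP channels and Piezo channels passed. With p left unadjusted in limma, 1 was lower and 0 were higher at 0.05, against 18.2% and 12.9% of all genes. Piezo2 and Piezo1 encode mechanically gated channels. Piezo2 differed by -0.52 ± 0.17 (adjusted p = 0.0817) and Piezo1 by -0.25 ± 0.13 (adjusted p = 0.228). The 2 probe sets of Piezo2 differed by -0.18 ± 0.13 and -0.86 ± 0.29, neither past the threshold.

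**Figure D4:**
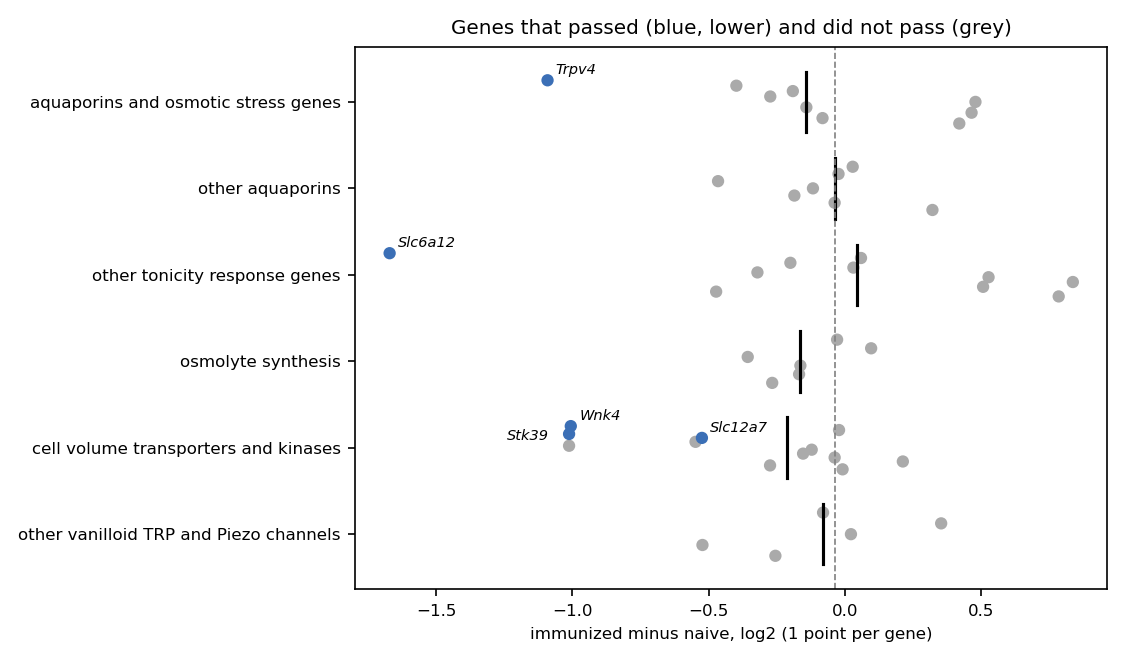
Each point is the difference of immunized from naive samples (log2) of 1 gene, blue where it fell at an adjusted p under 0.05 and grey where it did not pass, with a black bar at each list's median and a dashed line at the median of all genes (-0.04). Slc6a12, Wnk4, Stk39 and Slc12a7 fell beside Trpv4, and no gene of these lists rose.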

How the data were processed

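The members and gene lists were chosen with earlier results of these data known. The values the authors deposited are on a log2 scale, 1 for each probe set on each array. Per the submitters' processing notes they come from RMA, which subtracts background, quantile-normalizes arrays and summarises probes. The software version and log base are not given in the sources used here, and log2 is the scale of RMA. Over the 8 arrays each probe set has a median of 0 (to within 5e-07), a centring that leaves differences between groups as they were and removes the level. Names come from the annotation of the platform, and gene identifiers were looked up in RefSeq (GRCm38.p6). One gene is named by 34958 probe sets, several by 932 and none by 9211, and 64 control probe sets were left out. Signal classes rest on the spacing of the printed values. Where quantile normalization is given as a check, it was applied to the centred values, after that of RMA. It forces the arrays' deviations to 1 spread (their SD ran from 0.21 to 0.41), so it is no repeat of the usual step.

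A gene was the mean of the probe sets naming it alone. The groups were compared with limma version 3.58.1 under R version 4.3.3, by two-sided moderated tests (lmFit, then eBayes) without covariates. P-values were adjusted by Benjamini-Hochberg over 18193 genes, or over 45037 probe sets tested singly, at a threshold of 0.05. The labels call the replicates biological. The number of arrays limits the precision, and no batch or scan date was used here. The fit was tested on simulated data. All members were named, with the genes of each pathway list that passed or, where none did, up to 2 with the largest moderated t, up to 2 passing markers of a cell type set beside a member, and the 3 genes nearest to a member that passed. Pathway genes shown as not passing beside a passing one, the third marker of keratinized epithelium, Mrps6 and endothelial markers were added after their values were seen. Exact permutation tests of single values used all 56 assignments of 3 and 5 labels.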

Additional observations from a re-analysis of the deposited data

Results flagged for a closer look

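In the 5 immunized samples, 1 value lay far from the other 4 in 2 of 31 groups of values examined, and chance alone gives about 1 in 20. Aqp3 was lowest in immunized replicate 3 (-0.15), and Slc5a3 was highest in immunized replicate 2 (0.39).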

How the results depend on the processing

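With all samples limma called 1 member gene, 4 member probe sets, 4 pathway genes and 1663 of all genes. These counts were, in that order, 0, 1, 2 and 910 (541 higher, 369 lower) after quantile normalization, 0, 0, 0 and 0 without both samples with joined numbers (1621 higher and 2173 lower over all genes at an unadjusted p under 0.05), 0, 0, 0 and 54 at an adjusted p of 0.01, 3, 7, 11 and 3783 at 0.1, and 5, 13, 17 and 5900 with array weights. Without naive replicate 1 and immunized replicates 3 and 5 (a setting added with the data in view) they were 0, 0, 0 and 218. Those samples had the highest neutrophil marker means of their groups (-0.07, 0.56 and 0.59). Member genes called were 2 with the median of a gene's probe sets, 2 with the trended and robust model (2 probe sets) and 3 where 1 probe set sufficed. With 1 sample left out in turn the counts ran from 0 to 2, 0 to 6, 0 to 8 and 21 to 3003, lowest over all genes without naive replicate 2 and highest without immunized replicate 2.

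Same-numbered samples correlated at -0.05, 0.24 and -0.10 in their deviations from the group means. Whether they share more than a number cannot be told from so few pairs. With the replicate number as a block the counts were 0, 0, 0 and 7, and Trpv4 differed by -0.96 (adjusted p = 0.162). Only numbers carried by both groups inform the group difference there, so that fit rests on 3 same-numbered pairs. Immunized samples without a naive sample of the same number add nothing to that difference. Over 22 settings Trpv4 stayed between -1.31 and -0.85 and passed in 10. Slc5a3 changed sign without both samples with joined numbers (0.02), without naive replicate 3 (0.01, the range with 1 sample left out being -0.34 to 0.01) and in its probe set of smallest p (0.60), and no other member gene changed sign in any setting. Arrays centred on their medians gave 885 higher and 725 lower genes, against 812 and 851. Level is lost, so signal over background limits Aqp3, Aqp4, Aqp5 and Aqp9 most.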
